A study of Sus scrofa with 8 samples.

Results

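The insulin-like growth factor (IGF) system was described here in olfactory tissue of newborn pigs through 10 genes, chosen by symbol, out of 25880 pig genes in the count table. They comprised the ligands IGF1 and IGF2, the receptors IGF1R and IGF2R, and the binding proteins IGFBP2, IGFBP3, IGFBP4, IGFBP5, IGFBP6 and IGFBP7. All 10 were found, 8 through their identifier and 2 (IGF2 and IGFBP3) by their position. The libraries came from the olfactory epithelium of 4 piglets labelled CFTR knock-out (numbers 6, 18, 20 and 21) and of 4 labelled wild type (numbers 5, 9, 12 and 23), all newborn and profiled by bulk mRNA sequencing to examine loss of smell in cystic fibrosis. CFTR encodes the epithelial anion channel that is defective in that disease. The tissue was dissected and snap frozen before RNA extraction. The labels call the knockout piglets CFTR-null, state no drug or other treatment for either genotype, and give no litter, sex or strain.

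IGF1 and IGF2 are secreted growth factors. They act mainly through IGF1R, a receptor tyrosine kinase that signals through insulin receptor substrates to PI3-kinase and AKT, whereas IGF2R takes up IGF2 for degradation in lysosomes and also sorts lysosomal enzymes. The IGFBP proteins hold the ligands outside the cell, and proteases such as PAPPA release them. IGF2 is an imprinted gene of fetal growth, and IGF signalling is known in the olfactory system for a part in neuron survival and the sorting of sensory axons in mice.

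No IGF gene was called different between knockout and wild-type piglets. Both receptors had higher mean levels in knockout piglets, IGF2R 1.36-fold and IGF1R 1.41-fold. IGFBP3, IGFBP4 and IGFBP5 had lower mean levels, 1.58-fold, 1.38-fold and 1.29-fold. IGF2 and IGFBP6 were within 1.05-fold of equal, and IGF1 was close to the detection limit in every library. By the quasi-likelihood test of edgeR, 0 of the 10 genes passed an adjusted p of 0.05 and 2 had an unadjusted p under 0.05 (IGF2R and IGFBP4), while DESeq2 and limma also called 0. Across all 17175 genes tested, edgeR called 0.00582% (1 gene, CFTR) and 11.2% had an unadjusted p under 0.05, so that 2 of 10 is to be read against that share. DESeq2 called 1.31% of all genes (0.502% higher and 0.806% lower) and limma 0.0640% (0.0175% higher and 0.0466% lower). Knockout and wild-type values overlapped for all 10 IGF genes, while 5.81% of all genes did not overlap.

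**Figure D1:**
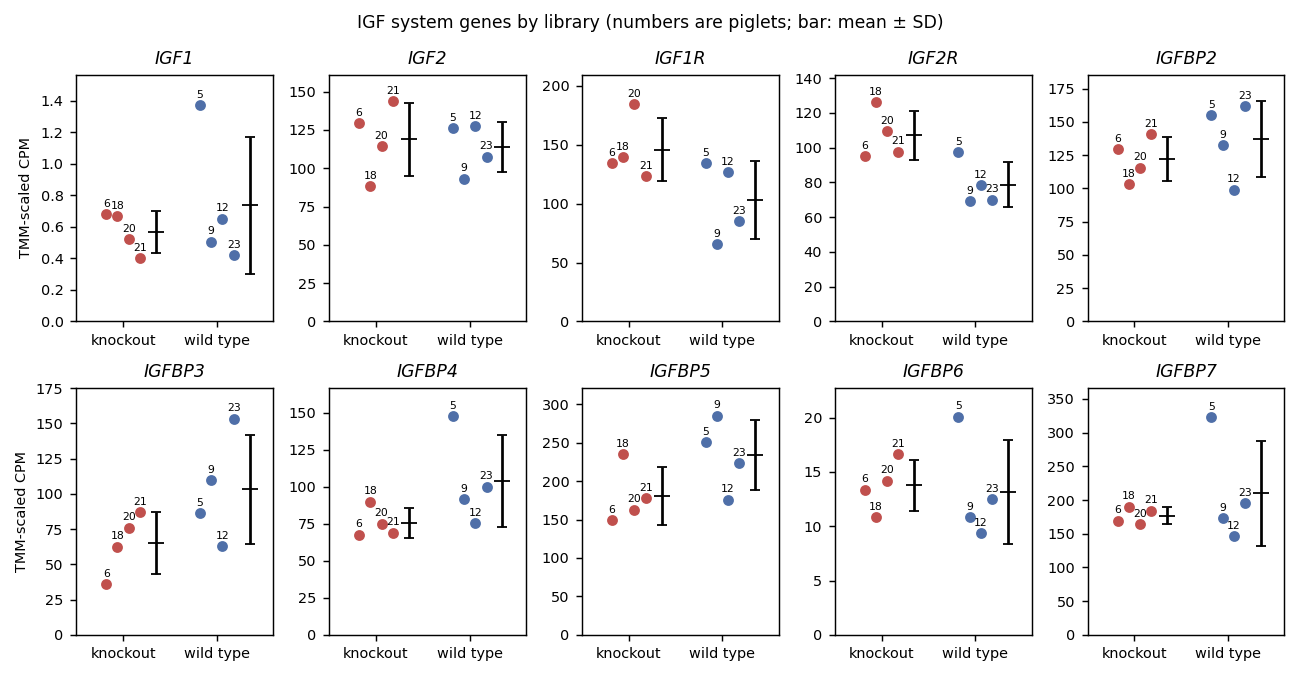
Expression of the 10 genes in TMM-scaled CPM (vertical axis, from 0) in the 4 knockout libraries and the 4 wild-type libraries; points carry the piglet number and the bar gives mean ± SD. The 2 groups overlap in every panel, and wild-type piglet 5 is the highest of the 8 libraries for IGF1, IGFBP4, IGFBP6 and IGFBP7.

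Library totals were 30836904 to 43253395 counts. CFTR (ENSSSCG00000016626) served as the check of the labels and was 6.84 ± 1.36 CPM (read counts scaled to sequencing depth by TMM) in knockout and 40.4 ± 10.9 CPM in wild-type piglets (SD, n = 4 each), with an edgeR adjusted p of 0.0121. Markers of olfactory sensory neurons were abundant in all libraries, while OMP, their usual marker, was not analysed here. Their summed level over 10 genes was 5354 to 6357 CPM in knockout and 3404 to 5257 CPM in wild-type piglets, without overlap. All 10 log2 fold changes were positive, against 51.6% of all genes tested, and edgeR called 0. An unadjusted edgeR p under 0.05 was found for 4 of the 10, all higher, against 5.40% of all genes in that direction. Taken singly, 1 of the 10 markers did not overlap, against 2.45% of all genes on the higher side. The mean log2 score of these markers did overlap, with knockout piglet 18 (8.28) below wild-type piglet 12 (8.40). No listed marker with an identifier was at 0 in all libraries. Knockout piglet 18 stood apart in 9 bone markers, with a summed 28264 CPM against 1116 to 1589 CPM in the other knockout and 1312 to 3459 CPM in the wild-type piglets. Wild-type piglet 5 had the highest endothelial sum (466 CPM over 8 genes, against 221 to 333 CPM in knockout and 230 to 284 CPM in the other wild-type piglets) and the lowest sensory neuron sum. In bulk tissue, fewer cells of a type and less RNA per cell cannot be told apart.

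IGF2R, the clearance receptor for IGF2, showed the smallest p of the 10 genes. Its identifier is ENSSSCG00000004044, at 7368103 to 7472548 on the minus strand of chromosome 1 (coordinates as in the deposited table, which names no genome build). Its level was 95.1, 126, 110 and 97.7 CPM in knockout piglets 6, 18, 20 and 21, against 97.2, 69.1, 78.6 and 70.1 CPM in wild-type piglets 5, 9, 12 and 23. Of the knockout values, 3 lay above all wild-type values, and the groups met only because wild-type piglet 5 exceeded knockout piglet 6. The means were 107 ± 14.1 CPM in knockout and 78.7 ± 13.1 CPM in wild-type piglets (SD, n = 4 each), and the fitted log2 difference was 0.44 ± 0.13 (SE) with a 95% interval of 0.14 to 0.74. The adjusted p was 0.371 by edgeR, 0.102 by DESeq2 and 0.0930 by limma with sample quality weights. The log2 fold change stayed between 0.35 and 0.68 under every alternative run, and the edgeR, DESeq2 or limma adjusted p of those fits was between 0.0930 and 0.762.

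IGF1R, the signalling receptor (ENSSSCG00000030560, chromosome 1, 137387825 to 137692307, minus strand), was the other gene with all 4 knockout values above the wild-type mean. It was 135, 140, 185 and 124 CPM in knockout piglets 6, 18, 20 and 21, and 135, 65.7, 127 and 85.5 CPM in wild-type piglets 5, 9, 12 and 23. Knockout piglet 20 was the highest library, wild-type piglets 9 and 23 were the lowest, and the remaining 5 libraries lay close together. The mean was 146 ± 26.8 CPM in knockout and 103 ± 33.0 CPM in wild-type piglets (SD, n = 4 each). Its log2 fold change was 0.50 ± 0.23 (SE), with a 95% interval of -0.02 to 1.01 and an edgeR adjusted p of 0.449. Summed over both receptors, levels were 221 to 294 CPM in knockout and 135 to 232 CPM in wild-type piglets. Per kilobase of gene model, the ratio of IGF1R to IGF2R was 1.63 ± 0.293 in knockout and 1.54 ± 0.333 in wild-type piglets (SD, n = 4 each).

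IGF2 was by far the more abundant ligand transcript. The identifier ENSSSCG00000035293 (chromosome 2, 1469104 to 1496346, minus strand) was paired with IGF2 by position, overlapping the RefSeq gene of assembly Sscrofa11.1 over at least 99.7% of both spans. IGF2 was 129, 88.3, 114 and 144 CPM in knockout piglets 6, 18, 20 and 21, against 126, 93.2, 127 and 108 CPM in wild-type piglets 5, 9, 12 and 23. Knockout piglets held both the lowest library, piglet 18, and the highest, piglet 21. The means were 119 ± 23.7 CPM in knockout and 114 ± 16.3 CPM in wild-type piglets (SD, n = 4 each), and the log2 fold change was 0.07 ± 0.16 (SE, edgeR adjusted p = 0.880). The unadjusted 95% interval of that value was -0.29 to 0.42. A short identifier on the opposite strand overlaps an IGF2 exon, and the sources used here do not say whether reads were counted by strand.

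IGF1 (ENSSSCG00000000857, chromosome 5, 81776422 to 81848048, plus strand) was counted with 30, 24, 23 and 17 reads in knockout piglets 6, 18, 20 and 21, against 57, 16, 27 and 18 reads in wild-type piglets 5, 9, 12 and 23. Wild-type piglet 5 had the most reads, and the other 7 libraries lay between 16 and 30. In CPM this was 0.570 ± 0.133 in knockout and 0.737 ± 0.433 in wild-type piglets (SD, n = 4 each). The log2 fold change was -0.38 ± 0.42 (SE, edgeR adjusted p = 0.717) and became 0.11 without wild-type piglet 5. The 95% interval ran from -1.31 to 0.56. Per kilobase of gene model, IGF2 exceeded IGF1 in every library, by 66.7 to 180-fold in knockout and by 46.5 to 130-fold in wild-type piglets.

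IGFBP3, the main carrier of IGFs in blood, had the largest spread of the 10 genes. Its identifier ENSSSCG00000038783 lies on chromosome 18 (50000101 to 50035762, plus strand), 21.2 Mb from CFTR on the same chromosome, and was paired with IGFBP3 because 76.8% of its 1433 exonic bases fell inside the RefSeq gene. It was 36.1, 62.5, 76.0 and 87.1 CPM in knockout piglets 6, 18, 20 and 21, and 86.5, 110, 62.7 and 153 CPM in wild-type piglets 5, 9, 12 and 23. The highest library was 4.25 times the lowest, and knockout piglets 6 and 18 lay below all wild-type piglets. The means were 65.4 ± 22.0 CPM in knockout and 103 ± 38.7 CPM in wild-type piglets (SD, n = 4 each), and the fitted log2 difference was -0.66 ± 0.31 (SE) with a 95% interval of -1.37 to 0.05. The edgeR adjusted p was 0.460. Leaving out 1 library at a time moved the value between -0.84, without wild-type piglet 12, and -0.40, without wild-type piglet 23.

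IGFBP4, a binding protein that restrains IGF action until PAPPA cleaves it, was the lower gene with the smallest p. It (ENSSSCG00000017472, chromosome 12, 21962639 to 21980945, minus strand) was 67.7, 89.9, 75.1 and 69.0 CPM in knockout piglets 6, 18, 20 and 21, against 147, 91.8, 75.6 and 100 CPM in wild-type piglets 5, 9, 12 and 23. Of the knockout values, 3 lay below every wild-type value, with piglet 18 the exception. The means were 75.4 ± 10.2 CPM in knockout and 104 ± 30.9 CPM in wild-type piglets (SD, n = 4 each), and the fitted log2 difference was -0.46 ± 0.19 (SE, 95% interval -0.90 to -0.02). The edgeR adjusted p was 0.431, and 0.430 without wild-type piglet 5, where the log2 fold change was -0.25. In all libraries with the endothelial score as a covariate, the log2 fold change was -0.31 ± 0.08 (SE). Fits with the fibroblast or the bone score gave -0.50 ± 0.13 and -0.50 ± 0.20. The edgeR adjusted p of these fits was 0.237 to 0.360. With the score of sensory neuron markers as a covariate the value was 0.07 ± 0.10 (edgeR adjusted p = 0.818). In 3 of the 4 knockout piglets that score exceeded every wild-type value, so this fit separates neuron markers and genotype poorly.

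IGFBP5, a binding protein that also attaches to extracellular matrix and bone, was lower on average in knockout piglets without passing the test. Its identifier is ENSSSCG00000025924 (chromosome 15, 118857471 to 118878593, minus strand), 5435 bases from the end of IGFBP2. It was 149, 235, 163 and 178 CPM in knockout piglets 6, 18, 20 and 21, against 251, 285, 176 and 223 CPM in wild-type piglets 5, 9, 12 and 23. Knockout piglet 18 and wild-type piglet 9, the pair with the highest bone marker sums, were also the highest library of their own group for IGFBP5. Across groups the order differed, since wild-type piglets 5 and 9 both exceeded knockout piglet 18, which had the highest bone sum. The part of bone content in these values was not tested beyond the covariate fit given below. The means were 181 ± 37.7 CPM in knockout and 234 ± 46.1 CPM in wild-type piglets (SD, n = 4 each), and the fitted log2 difference was -0.37 ± 0.18 (SE) at an edgeR adjusted p of 0.461. The log2 fold change was -0.46 ± 0.12 with the bone marker score as a covariate (edgeR adjusted p = 0.278), -0.52 without knockout piglet 18, and -0.04 ± 0.20 with the sensory neuron score as a covariate.

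IGFBP2, a binding protein of fetal tissues, varied little. It (ENSSSCG00000035392, chromosome 15, 118822009 to 118852036, plus strand) was 130, 103, 116 and 141 CPM in knockout piglets 6, 18, 20 and 21, and 155, 133, 99.0 and 162 CPM in wild-type piglets 5, 9, 12 and 23. The knockout range lay inside the wild-type range, and the log2 fold change was -0.17 ± 0.16 (SE, edgeR adjusted p = 0.676). IGFBP6, which prefers IGF2 over IGF1, was the least abundant binding protein per kilobase of gene model (ENSSSCG00000000261, chromosome 5, 18353171 to 18357225, plus strand). It was 13.4, 10.8, 14.2 and 16.6 CPM in knockout piglets 6, 18, 20 and 21, against 20.1, 10.8, 9.36 and 12.5 CPM in wild-type piglets 5, 9, 12 and 23. Here too the knockout values lay within the wild-type range, and the fitted log2 difference was 0.06 ± 0.24 (SE) at an edgeR adjusted p of 0.928.

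IGFBP7, a low-affinity IGF binder of vessel walls, followed wild-type piglet 5. Its level (ENSSSCG00000008913, chromosome 8, 56279895 to 56357881, minus strand) was 169, 190, 164 and 184 CPM in knockout piglets 6, 18, 20 and 21, against 324, 173, 147 and 196 CPM in wild-type piglets 5, 9, 12 and 23. Apart from wild-type piglet 5, all libraries lay between 147 and 196 CPM. The log2 fold change was -0.25 ± 0.22 (SE, edgeR adjusted p = 0.651), 0.03 without wild-type piglet 5 and -0.06 ± 0.11 with the endothelial marker score as a covariate. The endothelial sum was highest in the same library, as given above. Apart from wild-type piglet 5, these sums were 221 to 333 CPM in knockout and 230 to 284 CPM in wild-type piglets. Of 8 endothelial markers, 7 lay below 0 in log2 units (median -0.15), while 51.6% of all genes tested lay above 0. By edgeR, 0 of the 8 were called and 0 had an unadjusted p under 0.05, and 0 had groups that did not overlap. The part of endothelial content in the IGFBP7 values was not tested beyond the fit with the endothelial score. IGFBP1, the remaining classical binding protein and not among the 10 genes, had 2 reads over the knockout and 5 over the wild-type libraries. Its span (chromosome 18, 49984804 to 50022799, minus strand) overlaps that of the IGFBP3 identifier on the opposite strand. Whether their exons overlap was not examined, and the strand setting is not stated, so the counts of both genes carry that uncertainty.

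**Figure D2:**
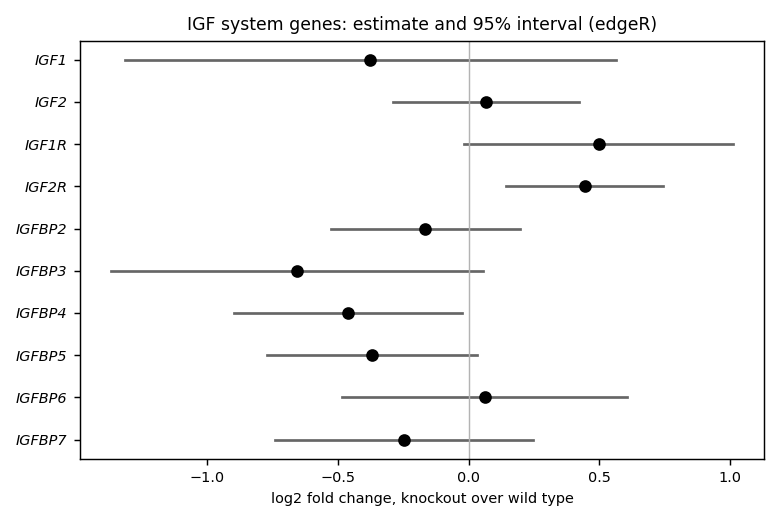
Log2 fold change of knockout over wild type (horizontal axis) for each of the 10 genes, with the 95% interval from the edgeR fit. The intervals of IGF2R (0.14 to 0.74) and IGFBP4 (-0.90 to -0.02) leave out 0 before adjustment for the 17175 genes tested, and those of the other 8 genes include it.

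Levels of different genes were compared only per kilobase of gene model, and the models may be incomplete, most of all for IGFBP3. On that scale 4 of the 6 binding proteins had the highest means. Over all 8 libraries the mean was 58.8 for IGFBP3, 51.5 for IGFBP2, 44.2 for IGFBP7 and 33.9 for IGFBP5, in CPM per kilobase. Next came IGFBP4 (17.5), IGF1R (16.5), IGF2 (14.2), IGFBP6 (11.3) and IGF2R (10.3), and IGF1 was last at 0.158. Only the steps from IGFBP5 down to IGFBP4 and from IGF2R down to IGF1 held in all 8 libraries. IGFBP4 exceeded IGF1R in 3 of the 8, and the order of the other neighbours held in 5 to 7, so those ranks are not separated beyond the spread between libraries.

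The summed level of the 6 binding proteins was 191 ± 20.97 CPM per kilobase in knockout and 244 ± 54.0 in wild-type piglets (SD, n = 4 each). It ranged from 164 to 215 in knockout and from 168 to 283 in wild-type libraries, which overlap. Relative to the summed ligands, the binding proteins were 13.4 ± 3.12 times as abundant in knockout and 17.8 ± 4.96 times in wild-type piglets (SD, n = 4 each). In relative abundance, IGFBP3 made up 23.5% ± 6.04 of the binding protein sum in knockout and 29.2% ± 7.14 in wild-type piglets, and IGFBP2 25.7% ± 4.27 and 22.4% ± 0.801 (SD, n = 4 each). The summed receptors were 0.126 to 0.193 of the summed binding proteins in knockout and 0.067 to 0.152 in wild-type piglets. These sums and ratios are descriptions and carry no test.

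**Figure D3:**
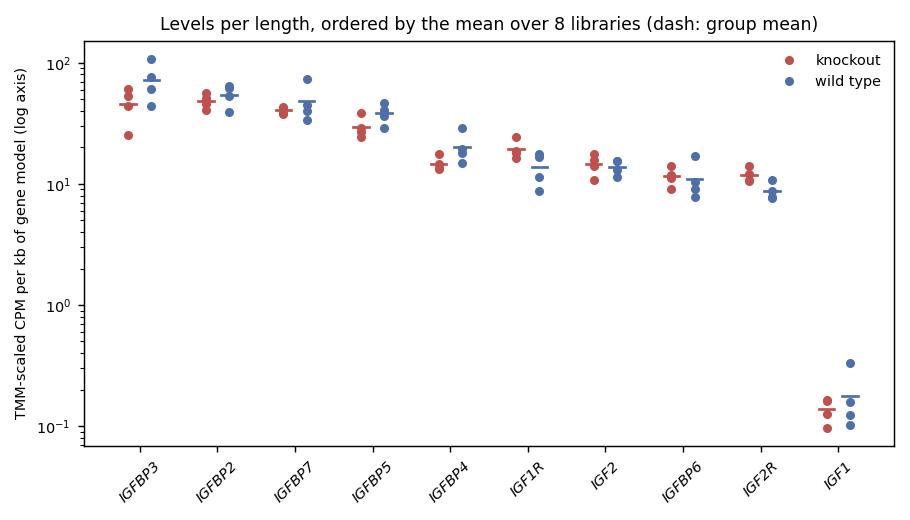
TMM-scaled CPM per kilobase of gene model (vertical log axis) for the 10 genes, ordered by their mean over all 8 libraries, with knockout libraries left of wild-type libraries and a dash at each group mean. IGFBP3, IGFBP2, IGFBP7 and IGFBP5 lie between 24.4 and 107, and IGF1 lies at or below 0.331.

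The 10 genes did not follow a single pattern across the libraries. Wild-type piglet 5 held the maximum of 4 of them, all but 1 being binding proteins. Wild-type piglet 23 held the maximum of IGFBP2 and IGFBP3, and wild-type piglet 9 that of IGFBP5 together with the minimum of both receptors. Knockout piglet 6 had the lowest IGFBP3, IGFBP4 and IGFBP5. Knockout piglet 18, rich in bone and fibroblast markers, was highest for IGF2R and lowest for IGF2. Likeness of profile was measured as the root mean square difference between centred log2 CPM values over the 8 libraries. Within the system, IGFBP4 and IGFBP7 were the closest pair (0.17), the receptors were each other's nearest (0.26), and IGFBP3 lay 0.46 from its nearest, IGFBP5. This measure is not scaled by a gene's own spread, which was largest for IGFBP3.

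Among 13168 named genes with a mean of at least 1 CPM, the nearest to IGF2R were BACH1 (0.07), ZNF277 and N4BP2L1, and the nearest to IGF1R were PSD3 (0.09), TTBK2 and CHD9. IGF2 was nearest to SLC9A2 (0.09), PDE8B and NAMPT, and IGF1 to CYP7B1 (0.15), NPR1 and EDAR. IGFBP4 was nearest to FBLN1 (0.08), SLCO2A1 and SH2B3, and IGFBP7 to RAMP2 (0.09), CLEC3B and FOXN2. For IGFBP5 the nearest were SNRPE (0.09), FSCN1 and GCAT, for IGFBP2 C12H17orf97 (named by position, 0.08), MGST2 and FBXO15, and for IGFBP6 KCNE3 (0.10), EFCC1 (named by position) and RHOJ. IGFBP3 had no profile as close in these units, its nearest being KMO (0.25), EGR2 and HBEGF. Its profile also had the largest SD of the IGF genes, 0.58 in log2 units against 0.23 for IGF2. The distances were not scaled by that spread.

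**Figure D4:**
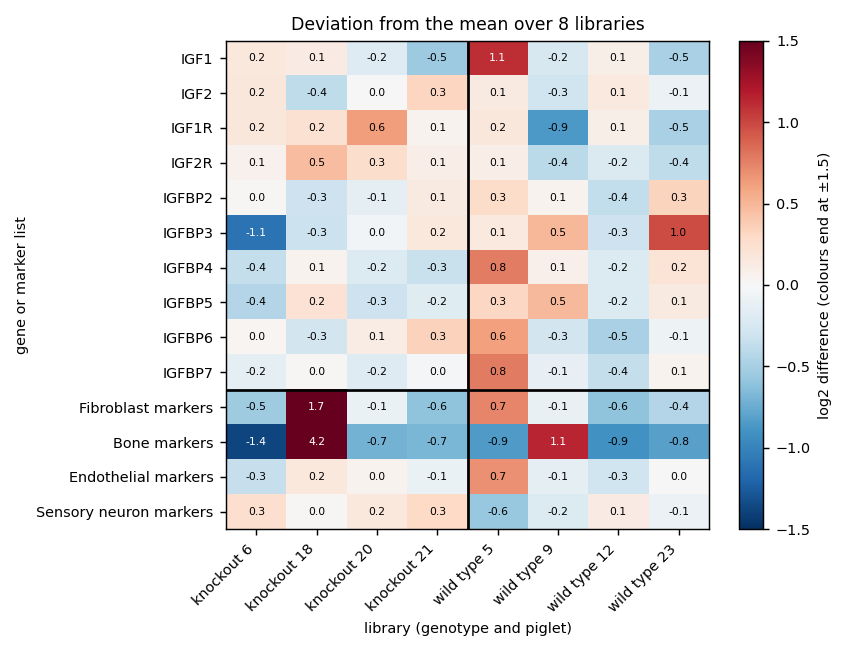
Deviation of each gene's log2 CPM (rows above the line) and of 4 marker list scores (rows below it) from its mean over the 8 libraries, knockout piglets left and wild-type piglets right. Wild-type piglet 5 deviates by 1.11 in IGF1, 0.78 in IGFBP7 and 0.68 in the endothelial score, and knockout piglet 18 by 4.21 in the bone score.

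Downstream of the receptors, the count table held 20 tested genes out of 22 listed for insulin and IGF receptor signalling. Of these, 13 were higher and 7 lower in log2 fold change, and the median was 0.096, against 0.01 over all genes tested, where 51.6% were positive. edgeR called 0 of them. An unadjusted p under 0.05 was found for 3 higher genes (IRS1, IRS2 and the AKT phosphatase PHLPP2) and 2 lower genes (the adaptor GRB14 and PIK3R2, a regulatory subunit of PI3-kinase), against 5.40% and 5.80% of all genes in these directions. PIK3R2 was 52.3 to 58.5 CPM in knockout and 59.8 to 74.3 CPM in wild-type piglets, without overlap, as in 3.36% of all genes on the lower side, and its log2 fold change was -0.25 ± 0.08 (SE, edgeR adjusted p = 0.405). DESeq2 called 1 of them, IRS1, which was higher, against 0.502% of all genes called higher by that tool, and limma called 0.

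IRS1, the adaptor that docks PI3-kinase to IGF1R, was 35.9, 40.6, 38.6 and 34.3 CPM in knockout piglets 6, 18, 20 and 21, against 27.1, 26.8, 32.8 and 28.1 CPM in wild-type piglets 5, 9, 12 and 23. All 4 knockout values were above all 4 wild-type values, as in 2.45% of all genes on the higher side. The log2 fold change was 0.38 ± 0.10 (SE), with an adjusted p of 0.334 by edgeR and 0.0377 by DESeq2, and 0.0377 to 0.762 over the alternatives. IRS2, its relative, was 33.9 to 47.9 CPM in knockout and 19.2 to 36.6 CPM in wild-type piglets, overlapping only through wild-type piglet 12, at 0.63 ± 0.19 in log2 units (SE), with an adjusted p of 0.371 by edgeR and 0.0899 by DESeq2. The level of IRS1 and of IRS2 was above the wild-type mean in every knockout library. With the sensory neuron score as a covariate their log2 fold changes were 0.32 and 0.39. Sensory neuron markers were higher in the same libraries, and their part in these values was not tested beyond that fit.

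Genes that FOXO factors induce when insulin or IGF signalling is low were listed as a readout. All 12 were tested and all 12 log2 fold changes were positive, with a median of 0.29, but neither edgeR, DESeq2 nor limma called any, and 3 had an unadjusted p under 0.05 (PIK3IP1, IRS2 and KLF15). Over all genes tested, 51.6% were positive and 5.40% were higher with such a p. Both IRS2 and INSR, which FOXO factors also induce, stood in this list and in the signalling list. PIK3IP1, an inhibitor of PI3-kinase, was 95.5 to 117 CPM in knockout and 54.4 to 88.4 CPM in wild-type piglets, without overlap, as in 2.45% of all genes on the higher side. The fit put it at 0.49 ± 0.15 in log2 units (SE) with an edgeR adjusted p of 0.371. With the sensory neuron score, whose markers were higher in the same libraries, PIK3IP1 was at 0.29, IRS2 at 0.39 and KLF15 at 0.69. KLF15, a transcription factor of fasting metabolism, was 20.6 ± 2.83 CPM in knockout and 14.4 ± 4.14 CPM in wild-type piglets (SD, n = 4 each; edgeR adjusted p = 0.416). The 12 genes were measured in the same libraries, so the count of positive signs is not a test. The 14 MTOR and FOXO effector genes were split evenly, 7 positive and 7 negative, with a median of 0.02 and 0 called. The 3 with the smallest p were RPTOR (-0.17 ± 0.08), FOXO1 (0.29 ± 0.13) and FOXO4 (0.27 ± 0.12), log2 fold changes with SE and edgeR adjusted p of 0.449 to 0.451. FOXO4 was at 0.16 without wild-type piglet 9.

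**Figure D5:**
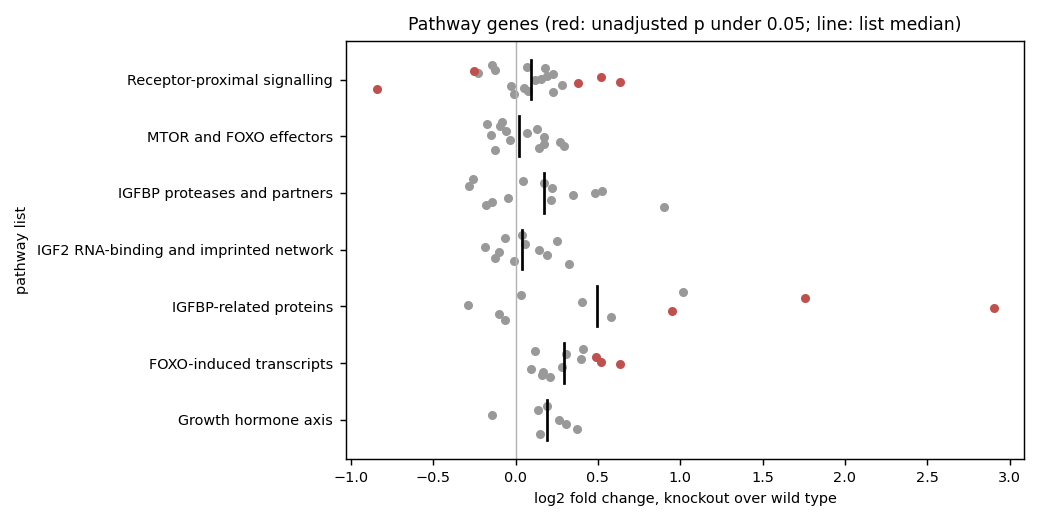
Log2 fold change of knockout over wild type (horizontal axis) of every tested gene in 7 pathway lists (rows), with red points for an unadjusted p under 0.05 and a line at each list's median. The 12 FOXO-induced genes all lie right of 0 with a median of 0.29, and the MTOR and FOXO effectors are centred on 0.02.

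Proteases and partners of the binding proteins gave 8 positive and 5 negative values among 13 tested genes, a median of 0.18 and 0 called. Over all genes tested, 51.6% were positive and the median was 0.01, and 0 of the 13 had an unadjusted edgeR p under 0.05. PAPPA, the protease of IGFBP4 and IGFBP5, was 22.9 ± 6.28 CPM in knockout and 16.4 ± 5.07 CPM in wild-type piglets (SD, n = 4 each), which the fit put at 0.48 ± 0.24 in log2 units (SE, edgeR adjusted p = 0.472). Its relative PAPPA2 was at 0.53 ± 0.32, and STC1, a stanniocalcin (the family inhibits PAPPA), at -0.28 ± 0.23. Without knockout piglet 20, PAPPA was at 0.29 and STC1 at -0.52, and STC1 was at -0.43 without wild-type piglet 12. With the sensory neuron score as a covariate, PAPPA was at 0.22 and STC1 turned to 0.056. Over all alternatives, PAPPA ranged from 0.22 to 0.71 and STC1 from -0.52 to 0.056. TMEM219, a receptor for IGFBP3 named here by position, was listed at 0 in all libraries. Among 11 tested genes of the IGF2 RNA-binding and imprinted group, 6 were positive (median 0.04) and 0 were called. IGF2BP2, which binds IGF2 mRNA, was 52.7 to 62.8 CPM in knockout and 44.9 to 52.2 CPM in wild-type piglets, without overlap, as in 2.45% of all genes on the higher side. Its log2 fold change was 0.19 ± 0.09 (SE, edgeR adjusted p = 0.448), and 0.12 ± 0.08 without knockout piglet 18. PLAG1, a transcription factor that activates IGF2, was at 0.25 ± 0.17, and the imprinted gene NNAT, named by position, at -0.19 ± 0.15. PLAG1 was at 0.14 without wild-type piglet 9 and 0.16 without knockout piglet 20, and NNAT at -0.044 without wild-type piglet 5 and -0.30 without knockout piglet 6.

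Proteins related to the IGFBP family were positive for 7 genes and negative for 3, their median log2 fold change was 0.49 and 0 were called. Over all genes tested, 51.6% were positive and the median was 0.01. An unadjusted edgeR p under 0.05 was found for 3 of the 10, all higher, against 5.40% of all genes in that direction. ESM1, an endothelial proteoglycan, was 2.51, 7.50, 5.36 and 14.8 CPM in knockout piglets 6, 18, 20 and 21, against 2.09, 1.01, 4.28 and 1.49 CPM in wild-type piglets 5, 9, 12 and 23. Knockout piglet 21 was highest, and the groups overlapped through wild-type piglet 12. The log2 fold change was 1.76 ± 0.59 (SE, edgeR adjusted p = 0.403). CCN5, a matrix-associated protein, was 3.32 CPM in knockout piglet 18, 0.260 to 0.296 CPM in the other knockout piglets and 0.0698 to 0.169 CPM in wild-type piglets. These groups did not overlap, as in 2.45% of all genes on the higher side. The level was near the detection limit outside knockout piglet 18, a filter at a mean of 1 CPM left CCN5 out, and DESeq2 gave it no p. Its log2 fold change was 2.90 ± 0.97 (SE, edgeR adjusted p = 0.405) with all libraries and 1.02 ± 0.42 without knockout piglet 18, and CCN4, a WNT-induced matrix protein, had 0.95 ± 0.37 and 0.44 ± 0.23 in these fits. For the growth hormone axis, which drives hepatic IGF1, 6 of 7 tested genes were positive (median 0.19) and 0 were called. Over all genes these were 51.6% and 0.01, and 0 of the 7 had an unadjusted edgeR p under 0.05. JAK2, the kinase of the growth hormone receptor, was at 0.26 ± 0.13, STAT5B at 0.19 ± 0.11 and GHR, the receptor, at 0.37 ± 0.40. The value for GHR was 0.94 ± 0.24 without wild-type piglet 5 (edgeR adjusted p = 0.307), 0.17 and 0.24 when wild-type piglet 9 or 23 was left out, and 1.23 with the sensory neuron score. Without wild-type piglet 9, JAK2 was at 0.16 and STAT5B at 0.12.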

How the data were processed

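The authors deposited unnormalized counts of reads for every gene in 8 libraries, in a table laid out like featureCounts output per the file headers. The submitters' processing notes list STAR 2.4.0 and Subread 1.5.0-p3 among other tools, without saying what each did. Genome build and strand setting were not stated, so overlapping genes are uncertain.

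Of the identifiers, 25880 pig genes entered library sizes and tests. A further 5888 on an extra sequence and 100 control identifiers, at most 0.00182% of the reads of a library, were left out. Symbols came from identifiers for 14857 genes and from position for 1642 (at least 50% of both spans overlapping the RefSeq gene of Sscrofa11.1), a step that gave 94.4% of 12665 known genes their own symbol. IGFBP3 was named through its exonic bases, a choice made after seeing the table.

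Counts were tested with edgeR 4.0.16 in R 4.3.3 (quasi-likelihood, TMM, default low-count filter leaving 17175 genes, genotype as the factor, Benjamini-Hochberg at 0.05). SEs and 95% intervals derive from its F statistic. Log2 CPM for profiles used a prior count of 2. Alternatives were DESeq2 1.42.0 on the filtered genes, limma 3.58.1 with voom and quality weights, other normalizations and filters, marker scores as covariates, and leaving out libraries. The pipeline was tested on simulated data as a check of the code. Its pass mark for calls was set only at the largest simulated fold change, so passing says nothing about calling differences as small as those here. The libraries are labelled as separate piglets, with no litter or batch given.

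The 10 genes and all lists were chosen with earlier results of these data known. Beyond the 10 genes and CFTR, named genes were the 3 with the smallest p in each of 7 pathway lists and the 3 nearest profiles per gene. Of the 3 most abundant genes in each of 11 marker lists, only those with a value flagged below are named. IGFBP1, INSR, TMEM219, PHLPP2 and GRB14 were named after their values were seen. Some listed genes are not reported here and were left out of the list counts. No nucleotide or protein sequence was used here.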

Additional observations from a re-analysis of the deposited data

Results flagged for a closer look

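Among 4 libraries of a genotype, a value was picked out when its gap to the next was large for the range (Dixon, 95%), which chance gives in about 1 in 20 groups. The rule was applied to 128 such groups, each of 1 gene in 1 genotype, so several flagged values are to be looked for by chance. No value of the 10 IGF genes met this rule. The values below belong to CFTR, to pathway genes and to tissue markers.

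In wild-type piglet 5, CFTR was 56.6 CPM (34.0 to 36.6 CPM in the other wild-type piglets), RPTOR 72.6 CPM (80.4 to 81.6), GHR 7.17 CPM (1.99 to 2.71) and the endothelial cadherin CDH5 84.4 CPM (41.4 to 46.9). In knockout piglet 6, NNAT was 132 CPM, against 97.4 to 102 CPM in the other knockout piglets.

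Knockout piglet 18 accounted for the rest. Its collagen and bone genes were COL1A2 at 13273 CPM (275 to 434 in the other knockout piglets), COL3A1 at 4213 CPM (215 to 483), COL1A1 at 17394 CPM (313 to 665), SPARC at 3874 CPM (575 to 607) and SPP1 at 4494 CPM (183 to 336). The macrophage genes CSF1R and CD163 were 107 CPM (8.49 to 11.2) and 44.5 CPM (11.5 to 14.7). IGF2BP2 was 62.8 CPM (52.7 to 53.0) and CCN5 3.32 CPM (0.260 to 0.296).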

How the results depend on the processing

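No paired analysis was possible because the labels give no litter or other pairing of knockout with wild-type piglets. None of the 10 IGF genes was called by any of the 19 alternatives, with a smallest adjusted p of 0.0930 (IGF2R, limma). Over these, 177 of 189 log2 fold changes kept their sign, and those of IGF1R, IGF2R, IGFBP2, IGFBP3 and IGFBP5 always did. The sign was kept only narrowly for IGFBP2 (-0.30 to -0.027) and IGFBP5 (-0.52 to -0.044), both nearest to 0 with the sensory neuron score. IGF1 could not be fitted with a filter at 1 CPM. For the 12 that turned, the cause was not tested. Leaving out 1 library at a time gave -0.57 to 0.11 for IGF1 (positive only without wild-type piglet 5), -0.037 to 0.18 for IGF2 (negative without knockout piglet 21, and -0.018 without wild-type piglet 9), -0.075 to 0.33 for IGFBP6 (negative without wild-type piglet 12, wild-type piglet 9 or knockout piglet 21) and -0.39 to 0.033 for IGFBP7 (positive only without wild-type piglet 5). Without both of the libraries that stood apart, wild-type piglet 5 and knockout piglet 18, IGF1 was 0.023. With the sensory neuron score as a covariate, chosen after seeing the data, IGF1 was 0.35, IGF2 -0.053, IGFBP4 0.066 and IGFBP7 0.33.

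Of all genes, edgeR called 1, DESeq2 219 (84 higher, 135 lower) and limma 11. With edgeR, 2 were called with the fibroblast score, 3 with the endothelial score (added after seeing the data) and 2 without both of those libraries. Leaving out 1 library at a time gave 0 to 16 (16 without wild-type piglet 12, 0 without knockout piglet 6 or 20). CFTR had an adjusted p of 0.122 and 0.0544 without these knockout piglets and 0.135 with the sensory neuron score. Depth limits IGF1 most, at 16 to 57 reads per library.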
